A study of Mus musculus with 2 samples.

Results

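The thrombospondins are a family of 5 secreted glycoproteins of the extracellular matrix, encoded in the mouse by Thbs1, Thbs2, Thbs3, Thbs4 and Comp. All 5 were found by symbol, each in 1 row, among the 27998 genes of the deposited matrices. Thbs4 was singled out because its UMIs (unique molecular identifiers, each standing for 1 captured RNA molecule) lay almost wholly in the tumour library, so the tumour to normal differences of the family are a description of the values that chose it. Thbs1 is on chromosome 2 (118111876 to 118127133, plus strand), Thbs2 on chromosome 17 (14665500 to 14694235, minus strand), Thbs3 on chromosome 3 (89215180 to 89226837, plus strand), Thbs4 on chromosome 13 (92751590 to 92794818, minus strand) and Comp on chromosome 8 (70373558 to 70382066, plus strand), all protein coding genes of GRCm38.

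Thbs1 and Thbs2 form the trimeric branch of the family and carry type 1 repeats, which bind the receptor CD36 and, in thrombospondin 1, help release TGF-beta from its latent complex. Thbs3, Thbs4 and Comp (cartilage oligomeric matrix protein) form the pentameric branch, which lacks these repeats and is best known from tendon, cartilage and bone. Their shared C-terminal part binds calcium and, in several members, integrins and CD47, and thrombospondin 4 is also known as a partner of the stress sensor ATF6 in the endoplasmic reticulum.

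The study profiled GFP-positive pancreatic cells of Rosa26-mTmG;Fabp4-Cre mice by 3′ single-cell RNA sequencing. The reporter turns from red to green in any cell in which Cre, here driven by the Fabp4 promoter, has been active, so the sort marks a lineage history and not a current cell type. The normal library came from healthy pancreas at 6 to 9 weeks of age, sorted for GFP and labelled as pancreatic stellate cells. The tumour library came from mice given FC1245 cells, a mouse pancreatic cancer line, in the pancreas at 8 weeks and collected 21 days later, sorted for GFP and podoplanin and labelled as cancer-associated fibroblasts. There was 1 library per group, the number of mice behind each is not given in the sources used here, and the digestion and the gate differed as well, so library, gate, digestion and tumour cannot be told apart and no difference between the libraries has a test.

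The normal library had 5437 barcodes with 36675424 UMIs and the tumour library 2942 barcodes with 33285044 UMIs; 4515 and 2520 cells were kept, with medians of 7045 and 10156.5 UMIs, and 4 barcode sequences occurred in both. Only 32.6% of the normal cells (1473) fell in clusters with fibroblast markers, the rest being mainly macrophage-like and endothelial-like, against 87.6% of the tumour cells (2208). Fibroblast-like cells therefore carried the comparison, with sums of 14011544 normal and 28048687 tumour UMIs. Among normal fibroblast-like cells 753 had a UMI of a Y-linked gene and none of Xist and 485 the reverse, while no tumour fibroblast-like cell had a Y-linked UMI. All counts are of 3′ ends and are given per 1000000 counts of the class sum (CPM). Intervals (95%) reflect counting error alone and say nothing of how mice differ. Levels are not compared between genes.

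Upstream sequences are shown for the 3 members found in the RefSeq promoter table (GRCm38.p6), which held no entry for Thbs1 or Comp. Of these, Thbs4 and Thbs2 were the members with the largest folds above 50 CPM, and Thbs3 was not 2-fold apart. Each is the 250 bases before the annotated start, 5′ to 3′ on the gene's strand, from chr13:92794819-92795068 (minus strand) for Thbs4, chr17:14694263-14694512 (minus strand) for Thbs2 and chr3:89214930-89215179 (plus strand) for Thbs3. Capitals mark matches on either strand to any of 6 short motifs. For AP-1, the factor of stress and growth signals, TGANTCA was searched, and for TEAD, the partners of YAP, CATTCC. The RUNX search used TGTGGT and that for the SMAD proteins of TGF-beta signalling CAGACA. For promoters in general the GC box was searched as GGGCGG, and then the TATA box as TATAAA.
Thbs4: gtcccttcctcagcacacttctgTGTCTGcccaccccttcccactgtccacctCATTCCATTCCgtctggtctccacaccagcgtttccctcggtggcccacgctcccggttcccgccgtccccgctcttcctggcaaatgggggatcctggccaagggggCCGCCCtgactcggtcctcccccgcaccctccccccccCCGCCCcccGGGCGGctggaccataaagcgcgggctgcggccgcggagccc
Thbs2: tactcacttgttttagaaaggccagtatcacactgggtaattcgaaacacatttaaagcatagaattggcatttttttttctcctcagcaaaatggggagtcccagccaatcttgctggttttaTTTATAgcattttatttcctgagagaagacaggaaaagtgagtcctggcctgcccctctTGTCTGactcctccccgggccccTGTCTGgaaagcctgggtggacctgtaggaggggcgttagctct
Thbs3: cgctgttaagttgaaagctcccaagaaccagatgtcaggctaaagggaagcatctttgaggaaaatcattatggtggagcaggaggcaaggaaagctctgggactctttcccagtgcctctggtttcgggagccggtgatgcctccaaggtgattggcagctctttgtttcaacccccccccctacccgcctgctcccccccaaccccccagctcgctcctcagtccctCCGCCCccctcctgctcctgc
The Thbs4 window held 2 overlapping matches to the TEAD motif on the gene's strand, from 197 to 192 and from 192 to 187 bases before the start, where 12.6% of 32851 mouse windows of this length held at least 1. It also held 1 SMAD match (present in 17.1% of windows) and 3 GC box matches (in 32.7%), and its GC content was 70.8% with 19 CpG dinucleotides, against medians of 52.4% and 6 over all windows. The Thbs2 window was poorer in GC (46.8%, 3 CpG) and held 2 SMAD matches and 1 TATA match, the latter on the strand opposite to the gene and 126 to 121 bases before the start. The Thbs3 window (58.8% GC, 6 CpG) held 1 GC box match. No AP-1 or RUNX letters were found in these windows, where 6.75% and 14.0% of all windows hold them. Such matches describe letters in a window and not bound sites.

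Thbs4 had 1 UMI in the normal fibroblast-like sum (0.0714 CPM, interval 0.00181 to 0.398) and 10275 UMIs in the tumour sum (366 CPM, 359 to 373). The ratio was 5133 with a counting interval of 921 to 202755, wide because it rests on that single normal UMI. In all 5437 normal barcodes, kept or not, there were 3 Thbs4 UMIs: the 1 above and 2 in 1 pericyte-like cell. The normal and tumour levels did not come near each other, and the tumour count fell in 589 of 2208 cells (26.7%).

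Thbs1, the platelet and stromal thrombospondin known as an inhibitor of blood vessel growth, had 756 CPM (742 to 771) in normal and 1772 CPM (1756 to 1787) in tumour fibroblast-like cells, a fold of 2.34 (2.29 to 2.39). Thbs2, its closest relative, had 42.8 CPM (39.4 to 46.3) in normal and 241 CPM (235 to 247) in tumour cells, a fold of 5.64 (5.18 to 6.14). The size of the Thbs2 fold rested largely on 1 tumour cluster. Without the cluster led by Calca, described below, the fold was 1.68 (1.52 to 1.86). With stricter cell filters, under which a cluster of 393 tumour cells led by Calcb stayed unnamed, it was 2.38. The tumour cluster led by Adgra1, also described below, had 135 CPM of Thbs2 (124 to 146), above the normal sum. That led by Fetub had 43.5 CPM. The mean of the single cells' CPM was 37.8 in normal and 146 in tumour cells.

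Thbs3, a member studied mainly in the skeleton, had 75.8 CPM (71.3 to 80.5) in normal and 64.9 CPM (62.0 to 68.0) in tumour cells, a ratio of 0.857 (0.794 to 0.925). The direction of this small difference was not stable: it was 1.08 under trimmed mean (TMM) scaling and 1.09 under median ratio scaling. Comp had no UMI in normal fibroblast-like cells and 110 UMIs (3.92 CPM, 3.22 to 4.73) in 35 tumour cells. With the normal sum set to 3 counts this is at least 18.3-fold higher. Its level lay below the minimum of 50 CPM, so it was not called.

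A gene was called if its sums differed at least 2-fold, the interval excluded 1 and either sum reached 50 CPM. By that rule 3 of the 5 members (Thbs1, Thbs2 and Thbs4) were higher in the tumour and none was lower, where 9.4% of the 3637 genes tested were higher and 10.9% lower. Since the members were chosen from this contrast, nothing is read from that count. The median log2 fold of all genes with at least 20 CPM was -0.25 on class totals, and TMM or median ratio scaling shifted every log2 fold by 0.34 or 0.35, which moved calls over all genes from 342 higher and 396 lower to 592 and 210 or 609 and 207, and changed no call among the members.

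The share of cells with a UMI was compared after thinning each cell to 5000 UMIs, which left out 150 normal and 372 tumour cells with fewer. Thbs4 was found in 0 of 1323 normal cells, which by 3 counts allows a share of up to 0.227%, and in 25.1% (23.1 to 27.1) of 1836 tumour cells. Thbs1 went from 78.0% (75.7 to 80.2) of normal to 90.0% (88.6 to 91.4) of tumour cells and Thbs2 from 12.7% (11 to 14.6) to 32.0% (29.8 to 34.2). Thbs3 stood at 24.9% (22.6 to 27.3) and 24.0% (22.0 to 26.0), intervals that overlap. Without thinning the shares were 83.8% and 92.5% for Thbs1, 19.6% and 41.1% for Thbs2, and 38.2% and 41.7% for Thbs3. As a measure of free RNA, 0 of 64 thinned normal B-like cells had a Thbs1 UMI, and none of the 40 thinned tumour epithelial-like cells had one of Thbs4, at median depths of 9817 and 21450.5 UMIs before thinning. With so few cells, 3 counts allow shares of up to 4.69% and 7.5%.

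**Figure D1:**
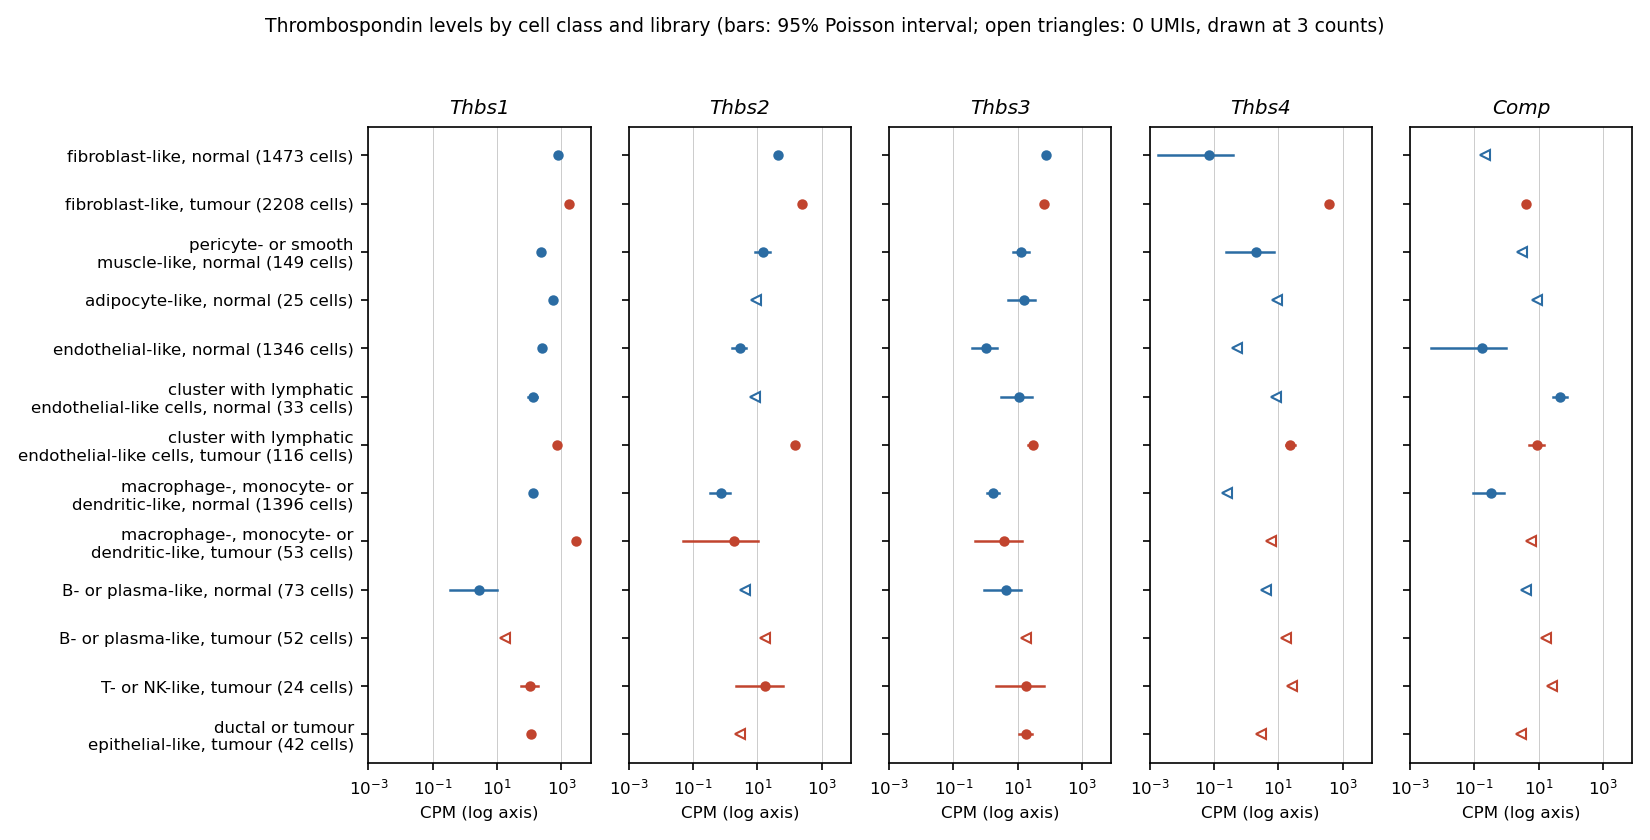
CPM of each thrombospondin gene (log axis, 1 panel per gene) in every cell class with at least 20 cells, normal in blue and tumour in red, with 95% Poisson intervals; open triangles stand at 3 counts where no UMI was found. Thbs4 reaches 366 CPM in tumour fibroblast-like cells and at most 23.9 CPM elsewhere, while Thbs1 is highest in tumour macrophage-like cells at 2797 CPM.

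Across classes, Thbs1 was the member found most widely. Its level was highest in 53 tumour macrophage-, monocyte- or dendritic-like cells (2797 CPM, 2655 to 2945), followed by tumour fibroblast-like cells. Normal fibroblast-like cells came next, with 116 tumour cells of a cluster that contains lymphatic endothelial-like cells beside them (741 CPM, 700 to 783), and these neighbours overlapped. Normal adipocyte-like cells followed at 558 CPM (481 to 645), then normal endothelial-like (241 CPM) and pericyte-like or smooth muscle-like cells (239 CPM). The sums of these last classes did not differ beyond counting error. The endothelial-like sum joined unlike clusters, led by Car4 (277 CPM, 263 to 293), Vwf (229 CPM, 159 to 318) and Gja5 (45.0 CPM, 32.0 to 61.5). Normal macrophage-like cells (127 CPM), the normal cells of the lymphatic cluster (128 CPM), tumour epithelial-like cells (111 CPM) and tumour T-like or NK-like cells (105 CPM, 54.0 to 183) had overlapping intervals. Of the 12 Thbs1 UMIs in the 24 tumour T-like or NK-like cells, 11 lay in 1 cell. B-like cells were lowest, with 2 UMIs in 73 normal cells and 0 in 52 tumour cells.

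Thbs2 and Thbs3 were largely fibroblast genes. Thbs2 had 241 CPM in tumour and 42.8 CPM in normal fibroblast-like cells, 15 CPM (8.38 to 24.7) in normal pericyte-like, 2.81 CPM in normal endothelial-like and 0.748 CPM in normal macrophage-like cells. Thbs3 had its highest levels in the same 2 fibroblast-like groups. Tumour epithelial-like cells had 18.1 CPM (10.9 to 28.2), from 19 UMIs in 42 cells, and normal pericyte-like cells 13.0 CPM (6.91 to 22.2), which overlapped. Both genes were also seen in the tumour cells of the lymphatic cluster, at 142 and 28.6 CPM.

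That cluster (33 normal and 116 tumour cells) was led by Ccl21a, Mmrn1 and Reln, markers of lymphatic vessels, but also by Prc1 and Mki67, genes of dividing cells, and was a mixture. In the normal library 14 cells, and in the tumour library 72, had UMIs of at least 3 lymphatic markers, a split made after the values were seen. In those 72 tumour cells Thbs4 had no UMI (up to 4.47 CPM allowed by 3 counts) and Thbs2 10 UMIs (14.9 CPM), while all 40 Thbs4 UMIs of the cluster's tumour cells and 228 of its 238 Thbs2 UMIs lay in the 44 cells with fewer such markers.

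Comp was the member with the opposite pattern in the lymphatic cells. In the 14 normal cells with at least 3 lymphatic markers there were 17 Comp UMIs in 5 cells (270 CPM, 157 to 432), and in the 72 tumour cells 5 UMIs in 2 cells (7.45 CPM, 2.42 to 17.4). The intervals did not overlap, but 5 normal cells carry the whole count. Of the 22 Comp UMIs in the normal library, 17 lay in these cells, 4 in macrophage-like cells and 1 in an endothelial-like cell.

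Thbs1 in macrophages depended on which normal cells were set beside the tumour cells. The macrophage-like class as a whole had 1528 UMIs in 1396 normal cells and 1456 UMIs in 53 tumour cells, a fold of 22.0 (20.5 to 23.7). Its make-up differed, however: normal cells lay in clusters led by Clec10a (738 cells), Marco (339) and Mmp12 (319), and 49 of the 53 tumour cells in the one led by Mmp12. Within the Mmp12 cluster Thbs1 had 32.7 CPM (26.2 to 40.2) in normal and 3065 CPM (2910 to 3227) in tumour cells, a fold of 93.8 (75.6 to 118). The normal cells had between 0 and 16 Thbs1 UMIs with a median of 0, and the tumour cells between 0 and 220 with a median of 21. Without the single highest cell the tumour level was 2740 CPM.

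A finer clustering (Leiden resolution 1) paired the cells differently. Of the 49 tumour cells 46 then lay in a cluster led by Alox15 with 36 normal cells, 32 of which came from the Marco cluster and 4 from the Mmp12 cluster. The rest of the normal Mmp12 cells fell in clusters led by Cx3cr1 (200 cells, 11.6 CPM of Thbs1) and Ear2 (115 cells, 45.5 CPM). Within the Alox15 cluster Thbs1 had 789 UMIs in normal cells (1825 CPM, 1700 to 1957) and 1444 UMIs in tumour cells (3171 CPM, 3009 to 3339), a fold of 1.74 (1.59 to 1.90) in place of 93.8. The normal cells had between 0 and 75 UMIs with a median of 14.5 and the tumour cells between 0 and 220 with a median of 22, so that the groups overlapped. The 36 normal cells thus held about as many Thbs1 UMIs as the 763 in the 1363 normal cells that kept the macrophage-like name. The Alox15 cluster stayed unnamed, and the 7 tumour cells left in the class had 12 Thbs1 UMIs (184 CPM).

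The other normal macrophage clusters also differed among themselves, with 366 CPM (347 to 386) of Thbs1 in the Marco cluster and 16.6 CPM (13.4 to 20.3) in the Clec10a cluster. The 10 fibroblast markers summed to 118 CPM in the tumour Mmp12 cells, against 39243 CPM in tumour fibroblast-like cells, whose own Thbs1 level was 1772 CPM. The 8 platelet markers, of interest because platelets store thrombospondin 1, summed to 732 CPM there with 5 at 0, and 675 CPM of that was Pf4, which macrophages also make; in the normal Mmp12 cells the sum was 1117 CPM.

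**Figure D2:**
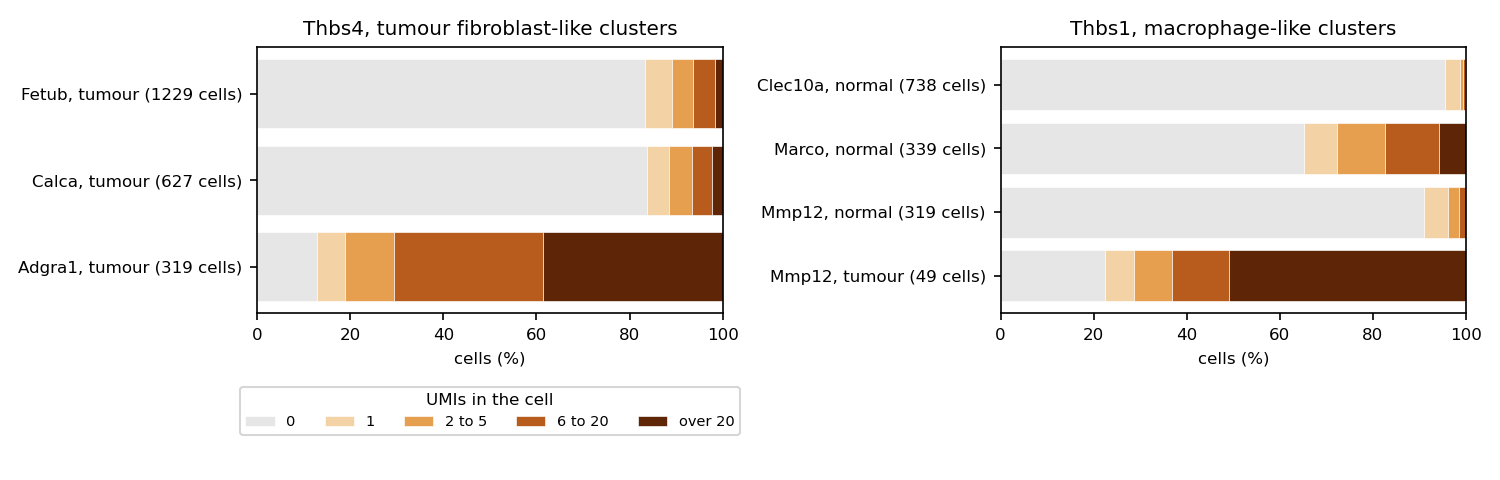
Share of cells (%) by the number of UMIs in the cell, for Thbs4 in the tumour cells of 3 fibroblast-like clusters (left) and Thbs1 in macrophage-like clusters (right). Of the cells led by Adgra1 87.1% have a Thbs4 UMI, and 51.0% of the tumour Mmp12 cells have over 20 Thbs1 UMIs, where none of the normal Mmp12 cells and 5.9% of the Marco cells do.

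Fibroblast-like cells formed 5 clusters, made with the 5 members kept out of the variable genes. The normal cells lay in clusters led by Dlk1 (961 normal and 26 tumour cells) and Efhd1 (476 and 7), the latter with Sema3c and Dpp4 among its top genes. The tumour cells lay in clusters led by Fetub (1229 tumour and 16 normal cells, with Apod), Calca (627 and 20, with Lrrc15 and Cthrc1) and Adgra1 (319 and 0, with Ltbp2 and Unc5c). Thbs4 itself had the highest fold of all genes in the Adgra1 cluster. Cluster and library thus nearly coincide, and cells of 1 library are not replicates.

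Thbs4 was concentrated in the Adgra1 cluster: 7357 of the 10275 tumour UMIs (71.6%) lay in its 319 cells, at 1671 CPM (1633 to 1709). The Fetub cluster had 165 CPM (157 to 173) and the Calca cluster 95.2 CPM (90.1 to 101). After thinning, 81.0% (76.2 to 85.2) of Adgra1 cells, 16.7% (14.3 to 19.3) of Fetub cells and 9.52% (7.31 to 12.1) of Calca cells had a UMI. The counts were uneven from cell to cell: the 221 cells with most Thbs4 (10%) held 84.5% of its UMIs, 1619 cells had none, and the highest cell, in the Calca cluster, had 191. Without the Adgra1 cluster the tumour over normal ratio was 1729 (310 to 68322).

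Thbs2 and Thbs3 ranked the clusters differently, while Thbs1 and Comp, given below, had the same order of the tumour clusters as Thbs4. Thbs2 was most frequent in the Calca cluster, at 54.4% (50.3 to 58.4) of thinned cells and 416 CPM. It was then found in 40.2% (34.7 to 45.9) of Adgra1 and 14.2% (12 to 16.7) of Fetub cells. In the normal library it was in 21.9% (18.2 to 26.0) of Efhd1 and 7.92% (6.18 to 9.97) of Dlk1 cells, so that the Efhd1 cluster of normal tissue lay above the largest tumour cluster in Thbs2, with 72.6 CPM (66.0 to 79.8) against 43.5 CPM (39.5 to 47.9).

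Thbs3 was most frequent in the normal Efhd1 cluster. It was in 45.1% (40.5 to 49.8) of thinned Efhd1 cells and 14.3% (12 to 16.8) of Dlk1 cells in the normal library. Among tumour clusters it was in 32.0% (28.3 to 35.9) of Calca, 23.1% (20.4 to 26.0) of Fetub and 10.3% (7.15 to 14.2) of Adgra1 cells, the last overlapping the Dlk1 cells. Thbs1 ranged in share from 62.8% (58.2 to 67.2) of Efhd1 to 97.7% (95.4 to 99.1) of Adgra1 cells, and its level ran from 649 CPM in Efhd1 and 839 CPM in Dlk1 cells to 1419, 2002 and 2373 CPM in the Calca, Fetub and Adgra1 clusters. Comp was in 4.18% (2.24 to 7.04) of thinned Adgra1 cells, 0.779% (0.314 to 1.6) of Fetub and 0.328% (0.0398 to 1.18) of Calca cells.

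**Figure D3:**
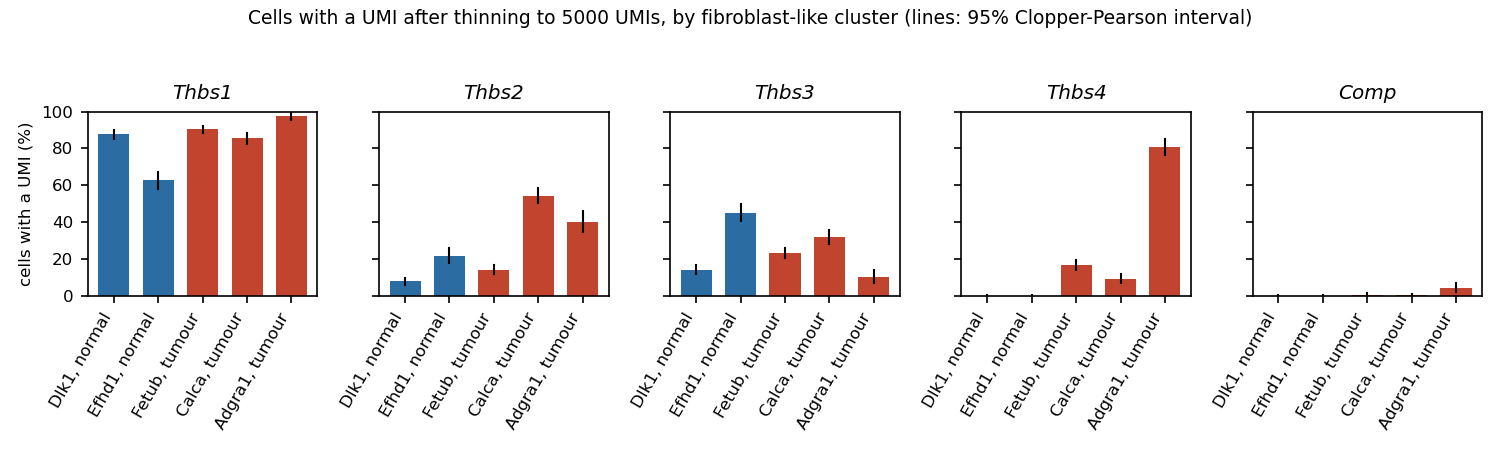
Share of cells (%) with a UMI of each thrombospondin gene after thinning to 5000 UMIs, in 2 normal (blue) and 3 tumour (red) fibroblast-like clusters, with 95% Clopper-Pearson intervals. Thbs4 is at 81.0% in the Adgra1 cluster and 0 in both normal clusters, Thbs2 peaks in the Calca cluster at 54.4% and Thbs3 in the normal Efhd1 cluster at 45.1%.

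Over all tumour fibroblast-like cells together no pair of members had a high r cell by cell. Pearson r of the log of 1 plus the thinned count, over 1836 cells that share 1 library, was 0.14 for Comp with Thbs4, 0.11 for Thbs1 with Thbs4, 0.01 for Thbs2 with Thbs4 and -0.10 for Thbs3 with Thbs4, and the other pairs lay between -0.07 and 0.03. In sparse counts such values are no finding, either of likeness or of its absence. Thinned cells with a Thbs4 UMI had a Comp UMI in 3.04% (1.67 to 5.05) of 460 cells, and cells without one in 0.581% (0.251 to 1.14) of 1376. Thbs3 was in 16.1% (12.8 to 19.8) of the former and 26.6% (24.3 to 29.0) of the latter. Within the Adgra1 cluster the Comp shares were 4.37% (2.20 to 7.68) and 3.39% (0.413 to 11.7) and the Thbs3 shares 9.92% and 11.9%, so that both differences lay within counting error there.

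The genes most like Thbs4 were then ranked by the same r among 7141 genes seen in 5% or more of the thinned cells, as a description and with no test. Highest in r, among the first 12, were Cilp (0.52), Col8a1 (0.46), Eln (0.45), Postn (0.42), F2r (0.42), Fxyd6 (0.41), Mfap4 (0.39), Tgfbi (0.39), Timp3 (0.36), Mdk (0.36) and Cxcl14 (0.35). The median over all ranked genes was 0.002, and 324 of them exceeded 0.10. Cells with a Thbs4 UMI had a median of 12297 UMIs before thinning and those without one 11492.5.

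Several of these encode matrix proteins. Cilp, a matrix protein of cartilage, had 2144 CPM in thinned cells with a Thbs4 UMI and 617 CPM in those without, 3.48-fold (3.34 to 3.62). Eln, the elastin of elastic fibres, had 2615 and 868 CPM, 3.01-fold (2.91 to 3.12), and Mfap4, a microfibril protein, 803 and 327 CPM. Col8a1, a short-chain collagen, had 1217 and 393 CPM, 3.1-fold (2.94 to 3.27), and Postn, the matricellular protein periostin, 1982 and 826 CPM.

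Others encode receptors or secreted factors. F2r, the thrombin receptor PAR1, had 419 and 134 CPM, 3.12-fold (2.85 to 3.42). Mdk, the growth factor midkine, had 503 and 203 CPM, and Cxcl14, a chemokine, 1799 and 784 CPM. Tgfbi, a TGF-beta induced matrix protein, had 133 and 27.8 CPM, the widest of those named at 4.81-fold (4.0 to 5.79). Timp3, an inhibitor of metalloproteinases, had 1893 and 867 CPM. Over all 3157 genes with enough counts in this contrast, which the ranking itself used, 1.81% were called higher and 3.29% lower in cells with a Thbs4 UMI.

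The 5 genes with the lowest r were C3 (-0.36), Clec3b (-0.33), Gpx3 (-0.32), Tnxb (-0.30) and Fth1 (-0.30). C3, the central complement component, had 1001 CPM in cells with a Thbs4 UMI and 3707 CPM without. Clec3b, tetranectin, had 90.9 and 487 CPM, and Tnxb, tenascin X, 110.0 and 385 CPM. Gpx3, a secreted glutathione peroxidase, had 784 and 1474 CPM, and Fth1, a ferritin subunit, 3496 and 5981 CPM.

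The likeness was partly a difference between clusters. Inside the Adgra1 cluster r with Thbs4 was 0.29 for Cilp, 0.27 for Tgfbi and 0.24 for Eln, and between -0.01 and 0.18 for the others named, and only those 3 stayed among the first 12 there. Inside the Fetub cluster it was 0.42 for Col8a1, 0.41 for Mfap4, 0.39 for Postn and 0.38 for Cilp. Of those named, all but Timp3 and Tgfbi were also among the genes higher in tumour than normal fibroblast-like sums; Timp3 was not 2-fold apart (1.52-fold) and Tgfbi lay under 50 CPM in both sums.

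**Figure D4:**
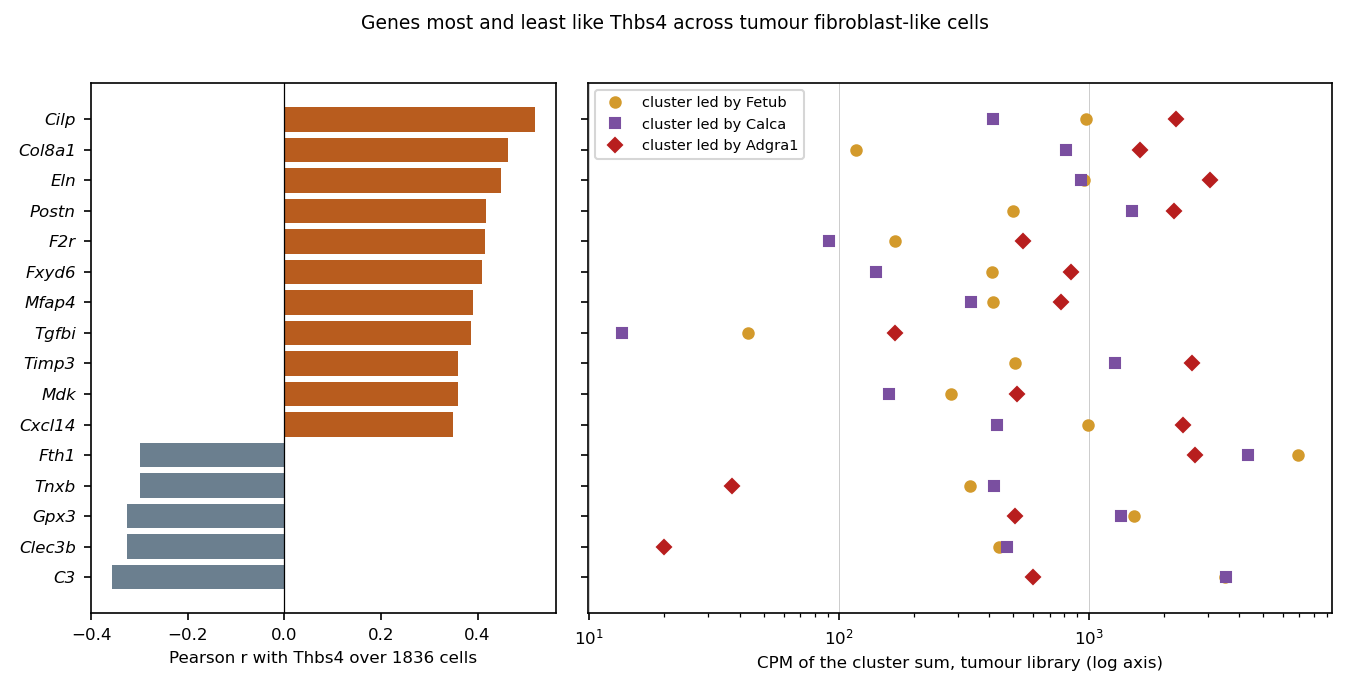
Left, Pearson r with Thbs4 over 1836 thinned tumour fibroblast-like cells for genes among the 12 of highest and the 5 of lowest r; right, the same genes' CPM (log axis) in the sums of the 3 tumour clusters. The genes of highest r shown are all highest in the Adgra1 cluster, with Cilp at 2251 CPM there, and all 5 are lowest there, with Clec3b at 19.9 CPM.

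The neighbours of the other members were not those of Thbs4. In tumour cells Thbs2 went with Lrrc15 (0.46), Col12a1 (0.46), Cthrc1 (0.43), Col1a1 (0.43) and Tnc (0.41), genes of contractile and collagen-producing fibroblasts. In normal cells it went with Pi16 (0.29), Nov (0.28), Sema3c (0.26), Dpp4 (0.26) and Fbn1 (0.26), genes of adventitial fibroblasts. Lrrc15, Cthrc1 and Col12a1 were among the top genes of the Calca cluster, which held 5707 of the 6758 tumour Thbs2 UMIs. Sema3c and Dpp4 were among those of the Efhd1 cluster, which held 436 of the 599 normal ones. No r within clusters is given for these members, and the part of cluster differences was not tested. Thbs3 went with Fn1 (0.34), Cd248 (0.34), Mfap5 (0.33), Pcolce2 (0.32) and Igfbp6 (0.30) in normal cells, and with Sfrp4, Ly6c1, Tnxb, Ly6a and Col14a1 in tumour cells, at 0.20 to 0.24.

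Thbs1 went with Gadd45b (0.28), Col4a1 (0.28), Junb (0.26), Emp1 (0.26) and Ccl11 (0.25) in normal cells and with Nr4a1 (0.32), Lpl (0.32), Col4a1 (0.29), Il6 (0.27) and Col4a2 (0.26) in tumour cells. Gadd45b, Junb and Nr4a1 belong to the genes that respond within minutes to stress or growth factors. Of 16 such immediate early and dissociation genes, a list added after the values were seen, 8 were higher and none lower in tumour fibroblast-like sums (median log2 fold 0.96), where 7.51% of the 6820 genes with at least 20 CPM were higher and 11.5% lower and their median was -0.25. Fosl1 (41.5-fold) and Ier3 (28.1-fold) were highest, and Jun (0.966) and Atf3 (0.527) lowest. The digestions differed between the libraries, and the part of either in the level of Thbs1 was not tested.

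Most receptors and binding partners of thrombospondins were less than 2-fold apart. Of 36 on the list, 19 reached 20 CPM in fibroblast-like sums, and 3 were higher and 4 lower in the tumour, beside 7.51% higher and 11.5% lower over all genes. Their median log2 fold was 0.16. The lower calls depended on the scaling: under TMM or median ratio scaling 5 of the 19 were higher, Fbln1 and Mmp2 being added, and none lower, where 11.4% of all genes were higher and 5.76% lower with TMM (11.6% and 5.62% with the median ratio). Sdc1, syndecan 1, was 17.8-fold higher (5.07 and 90.1 CPM) and Col1a1, chain 1 of collagen I, 3.74-fold higher, while Dcn, decorin, was 0.402 and Hspg2, perlecan, 0.447 of its normal level. Cd47, the receptor of the C-terminal part, had 608 CPM in normal and 303 CPM in tumour cells, a ratio of 0.497 (0.482 to 0.512), and Notch3 had 23.4 and 10.5 CPM. Levels of Lrp1 (947 and 984 CPM) and Calr (980 and 1093 CPM), which together bind the N-terminal part of thrombospondin 1, of the integrin subunit Itgav (88.9 and 116 CPM) and of the calcium channel subunit Cacna2d1 (70.6 and 68.4 CPM) were less than 2-fold apart.

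Cd36 and Itgb3 were at low levels in fibroblast-like cells. Cd36 had 4.64 CPM in normal and 1.35 CPM in tumour cells, and was highest in normal endothelial-like (634 CPM) and macrophage-like cells (606 CPM). Normal cells of the lymphatic cluster (269 CPM), pericyte-like (218 CPM) and adipocyte-like cells (187 CPM) followed, then tumour macrophage-like cells (96.1 CPM). Itgb3 had 16.8 and 10.2 CPM in fibroblast-like cells. Notch3 was at 824 CPM in normal pericyte-like or smooth muscle-like cells, a class that was named in part by this gene. Cd47 was found in every class, from 217 CPM in tumour B-like to 663 CPM in normal endothelial-like cells.

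Of the 11 measured genes of latent TGF-beta and its activation, 4 were higher and 2 lower. These stand beside 7.51% higher and 11.5% lower of all genes, and the median of the list was 0.72 on the log2 scale against -0.25. With TMM, 6 were higher and 1 lower, Tgfb2 and the receptor gene Tgfbr1 passing 2-fold and Ltbp1 no longer doing so. Ltbp2, of the gene family named for binding latent TGF-beta, went from 8 to 2133 UMIs (0.571 to 76.0 CPM), a fold of 133 (67.5 to 309). Binding itself was not measured. Tgfb1 went from 18.2 to 141 CPM, 7.74-fold. Tgfb3 had 17.4 and 124 CPM, 7.12-fold, and Tgfb2 93.4 and 177 CPM, under 2-fold. Ltbp4 (0.284) and Ltbp1 (0.398) were lower. Ltbp2 and Tgfb3 were also the list's genes with the highest r with Thbs4 in tumour cells, at 0.34 each, while Tgfb1 had 0.15 and Tgfb2 0.0002.

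Of 17 measured target genes of TGF-beta and YAP signalling, 11 were higher and 1 lower under each of the 3 scalings (median log2 fold 2.06 on class totals). Over all genes 7.51% were higher and 11.5% lower on class totals, with a median of -0.25. With TMM these shares were 11.4% and 5.76%, and with the median ratio 11.6% and 5.62%. Tagln (50.3-fold) and Acta2 (43.0-fold), proteins of the contractile apparatus, were highest, Amotl2 was lower (0.369), and Axl was at 0.574 of its normal level. Acta2 did not go with Thbs4: its r was -0.01, with 195 CPM in cells with a Thbs4 UMI and 275 CPM in those without. Tagln had an r of 0.27.

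Tendon and cartilage genes, among which Thbs4 and Comp are usually counted, were called in both directions. Of 15 measured, 7 were higher and 5 lower (median log2 fold 0.88), beside 7.51% and 11.5% of all genes. Under TMM or median ratio scaling 9 were higher and 1 lower, since Prelp, Col14a1, Dcn and Aspn fell short of 2-fold and Fmod and Egr1 passed it. Tnc, tenascin C, was 91.1-fold higher (7.78 and 708 CPM) and Col11a1, a fibril collagen of cartilage, 59.1-fold (28.6 to 147), from 7 UMIs in the normal sum. Clec3b (0.173) and Dcn (0.402) were lowest. The tendon regulators Scx and Mkx and the tendon gene Tnmd did not reach 20 CPM in either sum.

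Genes of the ATF6 branch and of folding in the endoplasmic reticulum were mostly less than 2-fold apart between the libraries. Of 20 measured, 1 was higher, Manf (2.09-fold, 245 and 511 CPM), and none lower, beside 7.51% higher and 11.5% lower over all genes. The list's median log2 fold was -0.03 against -0.25 over all genes. Creld2 came next (1.83-fold) and was called, as was Dnajb9, under TMM or median ratio scaling, and Sel1l (0.820) and Sdf2l1 (0.870) were lowest. Atf6 itself had 39.3 and 37.9 CPM, and 37.8 and 36.5 CPM in tumour cells with and without a Thbs4 UMI. Across tumour cells 324 of all 7141 ranked genes, not matched for detection and seen in as few as 5% of cells, had an r with Thbs4 over 0.10. So did 8 of 17 TGF-beta and YAP targets, 4 of 11 latent TGF-beta genes and 4 of 14 tendon and cartilage genes. The same held for 2 of 18 receptors and partners, 5 of 28 type 1 repeat genes and 1 of 16 immediate early genes. Of the 20 genes of the endoplasmic reticulum list 8 had such an r, and the list's median r was 0.07. Creld2 was highest (0.18), with 153 and 87.2 CPM in cells with and without a Thbs4 UMI, a fold of 1.75 (1.53 to 2.00), and Calr, the chaperone calreticulin, had an r of 0.16 with 1278 and 1018 CPM.

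Genes outside the family that share the type 1 repeat of Thbs1 and Thbs2 moved in both directions, with 10 of 28 higher and 11 lower (median log2 fold 0.20) on class totals, 11 and 8 with TMM, and 11 and 7 with the median ratio. The shares of all genes higher and lower were 7.51% and 11.5% on class totals (median log2 fold -0.25). They were 11.4% and 5.76% with TMM, and 11.6% and 5.62% with the median ratio. Wisp2 (75.3-fold, 45.6 to 135) and Unc5c (54.9-fold, 25.1 to 150), a netrin receptor, were highest, and Nov (0.167) and Adamtsl3 (0.149) lowest. Unc5c was among the genes that led the Adgra1 cluster and had an r of 0.28 with Thbs4, while Wisp2 had 0.01.

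**Figure D5:**
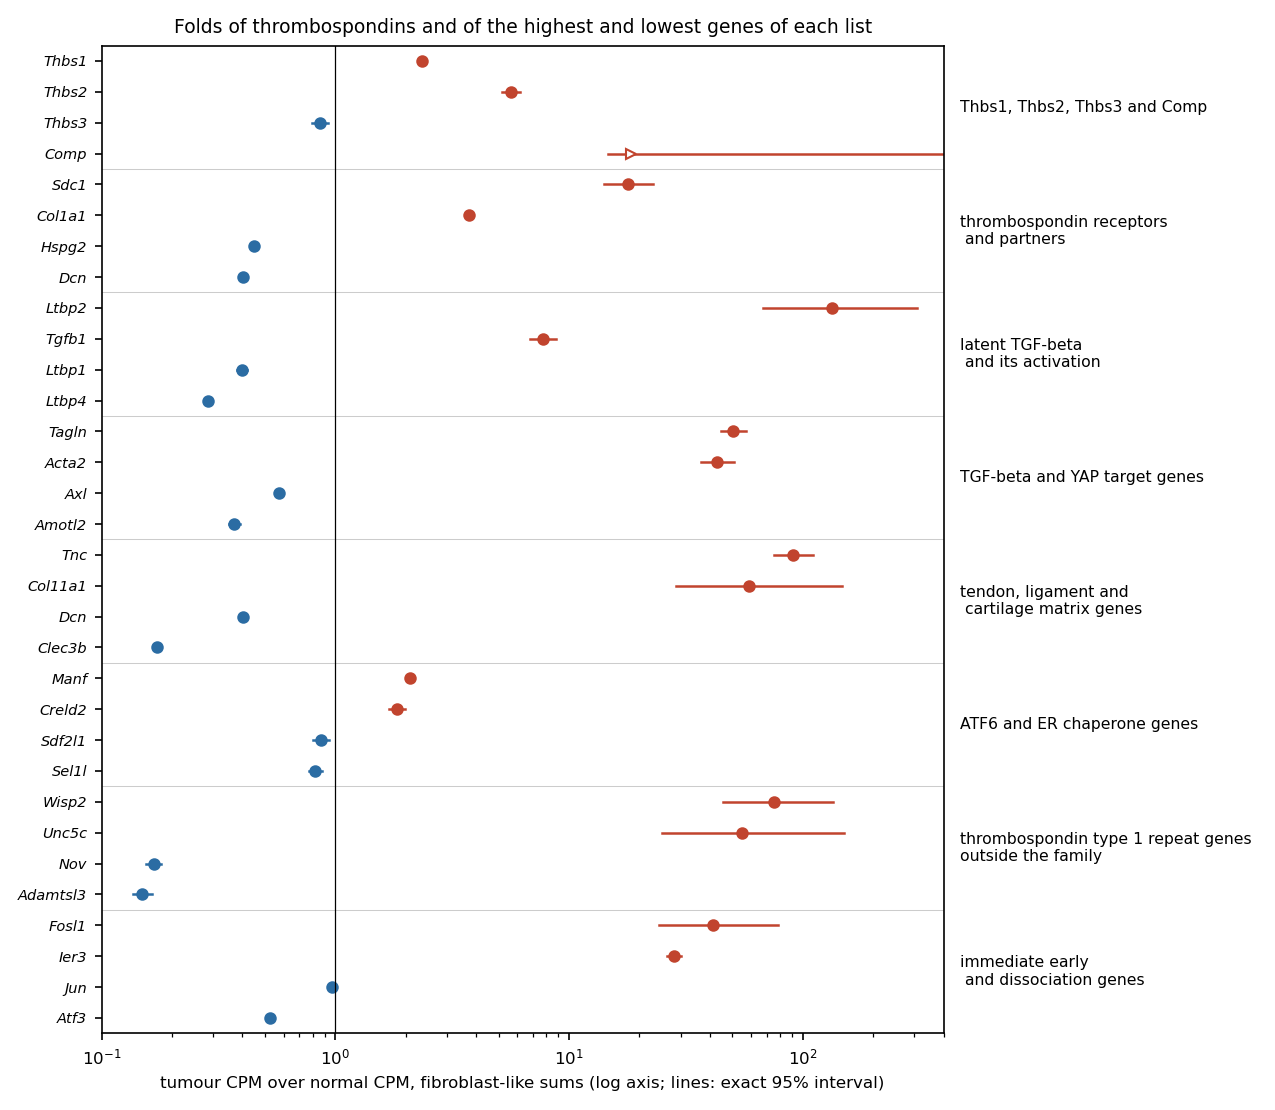
Tumour over normal CPM of fibroblast-like sums (log axis, lines 95% intervals) for Thbs1, Thbs2, Thbs3 and Comp and for the 2 highest and 2 lowest genes of each list; the open arrow marks a lower bound, and Thbs4, at 5133-fold, is left out. Ltbp2 has the highest fold shown at 133, and the genes of the endoplasmic reticulum list stay between 0.820 and 2.09.

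Markers of other cell types were present in the fibroblast-like sums, and their part in the members' levels was not tested. The 11 acinar markers summed to 747 CPM in normal and 76.8 CPM in tumour cells and the 10 mesothelial markers to 222 and 163 CPM, with none at 0. The 8 B-cell and plasma-cell markers summed to 136 and 1.28 CPM with 2 at 0 in the normal sum, and the 10 ductal or tumour epithelial markers to 41.6 and 102 CPM with Cdh1 and Krt17 at 0 in both. Of the latter sums, 32.3 and 86.0 CPM were Sox9, which is also on the tendon and cartilage list. The 10 macrophage markers summed to 113 CPM in normal and 12.5 CPM in tumour cells with 1 at 0 in the tumour, the 10 endothelial markers to 174 and 42.3 CPM with none at 0, and the 12 pericyte or smooth muscle markers to 229 and 295 CPM with 2 at 0 in the normal sum. The 8 platelet markers summed to 38.2 and 14.0 CPM, with Gp9, Gp1ba and Treml1 at 0 in both. Normal fibroblast-like cells with a Y-linked UMI and those with Xist had similar levels of Thbs1 (757 and 767 CPM) and Thbs2 (45.3 and 40.7 CPM), and 84.3 CPM (77.9 to 91.1) and 63.0 CPM (56.0 to 70.7) of Thbs3. Against the Xist cells alone, the ratio of Thbs3 was 1.03 (0.910 to 1.17).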

How the data were processed

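The authors deposited raw UMI counts per gene and barcode, made with Cell Ranger 3.1.0 on mm10 per the submitters' processing notes. The members and gene lists were chosen with earlier results of these data known. Barcodes were kept if they had 500 or more genes, 1000 or more UMIs and no more than 10% of UMIs from mitochondrial genes. Scrublet's automatic threshold removed 101 normal cells; in the tumour library it marked 0.0777%, so there the 53 highest scores were taken out, the number that a rate of 0.8% per 1000 cells gives. Cells of both libraries were clustered together (scanpy 1.11.5: 10000 per cell, log, 2000 variable genes without the members, 30 components, 15 neighbours, Leiden resolution 0.5). Each cluster took the class whose fixed markers had the highest mean log2 ratio to the lower quartile of clusters, with at least 3 markers in 25% of its cells; this scoring, and reading macrophage and dendritic markers as 1 class, were chosen after the clusters were seen. Classes are rebuilt and not the authors' own.

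Counts were summed by class and library and scaled to 1000000 (CPM). Intervals are exact Poisson, ratio of Poisson (both scipy 1.17.1) or Clopper-Pearson, at 95%; 0 was set to a floor of 3 counts. UMIs were thinned without replacement to 5000 per cell. With 1 library per group there is no test. The fold calls, the thinning and the ranking were tested on simulated data. TMM factors came from edgeR 4.0.16. List genes needed 20 CPM in either sum. Named were the members, the 12 most and 5 least like Thbs4, the 5 most like each other member, the 2 highest and 2 lowest of each list, and a fixed set of receptors and ligands; leading genes only identify clusters. Sex-linked, ribosomal protein, mitochondrial and unnamed genes were left out of the rankings. Gene positions are from GENCODE vM21. A gene that the rule selects is not reported here.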

Additional observations from a re-analysis of the deposited data

Results flagged for a closer look

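Comp was higher in tumour than in normal fibroblast-like cells, with 110 UMIs against 0, but 5.27-fold lower in the tumour than in the normal cells of the cluster with lymphatic endothelial-like cells, with 15 UMIs in 116 cells against 17 UMIs in 33 cells. It was picked out because the 2 classes differ in direction between the same 2 libraries. The difference was not tested, since each group is 1 library, and the normal count rests on 5 cells.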

How the results depend on the processing

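Each member's fold was recomputed under 14 alternatives, and the calls of Thbs1 and Thbs4 kept their direction and side in all of them; Comp stayed higher in each but below the minimum level, and the numbers of called members stayed within 1.5 times of 3 higher and 0 lower. Thbs2 lost its call without the Calca cluster (1.68-fold), where the fold used fewer cells. The ratio of Thbs4 ran from 1704 with Xist cells alone to 8584 without the Calca cluster, and over all retained cells, where class shares differ, Thbs1 was 4.05-fold and Thbs2 11.8-fold higher. Thbs3, never called, turned to a ratio above 1 with TMM (1.08), median ratio (1.09), all retained cells (1.83) and Xist cells alone (1.03); the cause was not tested. Thinning to 3000 UMIs lowered the shares, by construction, to 68.5% normal and 85.7% tumour for Thbs1, 8.13% and 23.1% for Thbs2, 17.1% and 16.0% for Thbs3, and 21.0% for Thbs4 in the tumour; without thinning they were 83.8% and 92.5%, 19.6% and 41.1%, and 38.2% and 41.7% for the first 3. At resolution 1 clusters led by Dmkn (288 tumour and 22 normal cells) and Alox15 (46 and 36) stayed unnamed, and the fold of Thbs1 in the macrophage-like cluster with most tumour cells went from 93.8 to 1.74, because other normal cells stood beside them. Shares were then 14.7% for Thbs2 in normal and, in tumour fibroblast-like cells, 92.3% for Thbs1, 21.1% for Thbs3 and 28.7% for Thbs4, with levels of 1793 CPM for Thbs1, 251 CPM for Thbs2, 52.4 CPM for Thbs3 and 436 CPM for Thbs4. Thbs1 was then at 763 CPM in normal adipocyte-like cells, and at 65.5 CPM (normal) and 184 CPM (tumour, 7 cells) in the macrophage-like class. With doublets kept, Thbs1 was at 275 CPM in adipocyte-like, 741 CPM in normal and 1725 CPM in tumour fibroblast-like cells and Thbs4 at 351 CPM in the latter. The lymphatic cluster then held other cells, with Thbs1 at 254 CPM (normal) and 850 CPM (tumour) and, in the tumour, Thbs2 at 15.1 CPM, Thbs3 at 6.88 CPM and Thbs4 at 0 CPM. Of the 12 genes most like Thbs4, 11 remained with Spearman's rho, 9 unthinned, 11 among genes found in at least 20% of cells, and 3 within the Adgra1 cluster. No paired analysis was possible because each group has 1 library. Under TMM and median ratio scaling the receptor list went from 3 higher and 4 lower to 5 and 0, the lower genes of the latent TGF-beta list from 2 to 1 and of the tendon list from 5 to 1, and the higher genes of the endoplasmic reticulum list from 1 to 3; the lower genes of the type 1 repeat list went from 11 to 8 and 7. These list scalings and the fate of the macrophage-like cells at resolution 1 were chosen after seeing the data. Counts of 1 to 5 UMIs, as for Thbs4 in the normal library and Comp in normal macrophage-like and endothelial-like cells, limit what depth allows to be said of those levels.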
